A study of Mus musculus with 8 samples.

Results

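The 42 genes described here flank Mtap on mouse chromosome 4. They were listed for their position within about 10 Mb of Mtap, and every probe set whose platform annotation names exactly 1 of them was kept. This gave 101 of the 45037 probe sets tested, with up to 7 probe sets per gene, and all 42 genes had at least 1. In the order of the RefSeq gene table, from the lower position upward, 24 of the genes lie before Mtap (Tyrp1 to Klhl9) and 18 after it (Cdkn2a to Usp1). The interval between the outermost of them holds 31 further genes with probe sets, which are not on the list and are given by counts. The list was chosen with earlier results of these data known, so its counts may not hold for the whole interval. Livers of 4 MTAP+/- mice, which carry 1 intact copy of Mtap, were compared with livers of 4 MTAP+/+ mice. All 8 were C57BL/6 males between 92 and 101 days old with no treatment named in the labels, and each liver was measured on its own Affymetrix array. The labels name neither the kind of altered allele nor the breeding history or litters of the mice, and the p-values measure the spread between these 8 livers.

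Mtap encodes methylthioadenosine phosphorylase, the enzyme that returns methylthioadenosine to the methionine and adenine pools. Its chromosomal neighbourhood is best known for Cdkn2a and Cdkn2b, which encode inhibitors of cyclin-dependent kinases and are often deleted together with MTAP in human tumours. Genes close to an altered locus are usually inherited along with it when a mouse line is bred, so a comparison of the flanking genes asks whether the transcripts around the altered gene differ as well as the gene itself. In this design the lower dose of Mtap and anything else that is carried on the same chromosome cannot be told apart.

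All values are log2 signals after RMA, a method that corrects background, equalises the distributions of the arrays and summarises the probes of a probe set. A log2 difference of 1 is a doubling of the signal, and every difference is MTAP+/- minus MTAP+/+. Mtap itself fell at all 4 of its probe sets, to between 32.2% and 57.6% of the MTAP+/+ signal, in the direction of the labels. Array medians lay between 3.91 and 3.97. The actin and Gapdh controls at the 3' end minus those at the 5' end gave 1.10, 0.71, 1.12 and 1.08 in MTAP+/- livers. In MTAP+/+ livers they gave 0.96, 0.96, 0.88 and 1.04. MTAP+/- replicate 2 was thus below all MTAP+/+ livers in this measure, and the other MTAP+/- livers were above them. The part of this measure in the differences between genotypes cannot be told apart. MTAP+/- replicate 2 stood apart from the other arrays on the second principal component (-44.12). On the first component it scored 35.57, beside MTAP+/+ replicates 1 and 2 (25.59 and 31.30). MTAP+/+ replicate 4 (-23.56) scored there like MTAP+/- replicates 1, 3 and 4 (-24.91 to -23.43). Without MTAP+/- replicate 2 the sign of the log2 difference turned at 8 of the 101 flanking probe sets. Without MTAP+/+ replicate 4 the sign turned at 6. The 5 measured hepatocyte markers averaged 13.43 to 13.73 in MTAP+/- and 13.39 to 13.65 in MTAP+/+ livers. Of 7 Kupffer cell and macrophage markers 5 were higher in MTAP+/- livers (median log2 difference 0.50), 3 had an unadjusted p under 0.05 and 0 passed an adjusted p of 0.05, with list means of 7.40 to 8.23 in MTAP+/- and 7.27 to 7.59 in MTAP+/+ livers. Of 5 lymphocyte markers 4 were higher in MTAP+/- livers, 1 at an unadjusted p under 0.05, with list means of 4.90 to 5.25 in MTAP+/- and 4.73 to 4.91 in MTAP+/+ livers. Of 3 exocrine pancreas markers 1 was higher and 2 were lower in MTAP+/- livers (median log2 difference -0.05), and 1 of the 3 had an unadjusted p under 0.05. Their list mean was 5.62 to 6.016 in MTAP+/- and 6.024 to 6.22 in MTAP+/+ livers. In the cholangiocyte, stellate and fibroblast, endothelial and erythroid lists 0 markers had an unadjusted p under 0.05. The part of these cell types in the values below was not tested, and in whole liver fewer cells of a type cannot be told apart from less RNA per cell.

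Among the flanking genes 1 of 101 probe sets passed an adjusted p of 0.05 in limma, against 0.0355% of all probe sets, and it was a probe set annotated to the noncoding transcript 2310067E19Rik, at which the signal rose (background 0.0244% for higher values). At an unadjusted p under 0.05 there were 18 probe sets of 12 genes, 17.8% of the 101 against 8.41% of all probe sets. Of these, 15 were higher in MTAP+/- livers (background 4.56%) and 3 were lower (background 3.85%). The groups did not overlap at 11 probe sets (10.9%, background 4.35%). All 4 MTAP+/- livers lay above all 4 MTAP+/+ livers at 9 probe sets (background 2.12%) and below them at 2 (background 2.22%). The median log2 difference was 0.08 over the 101 probe sets and -0.01 over all probe sets. Several of the 18 probe sets read the same gene, 4 of them Ttc39b and 3 Mpdz, so they are not separate observations. With 1 probe set per gene, the one of highest mean signal, 8 of 42 genes were higher and 1 was lower at an unadjusted p under 0.05, where the background over 18193 genes was 9.14%, of which 4.4% higher and 4.74% lower.

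**Figure D1:**
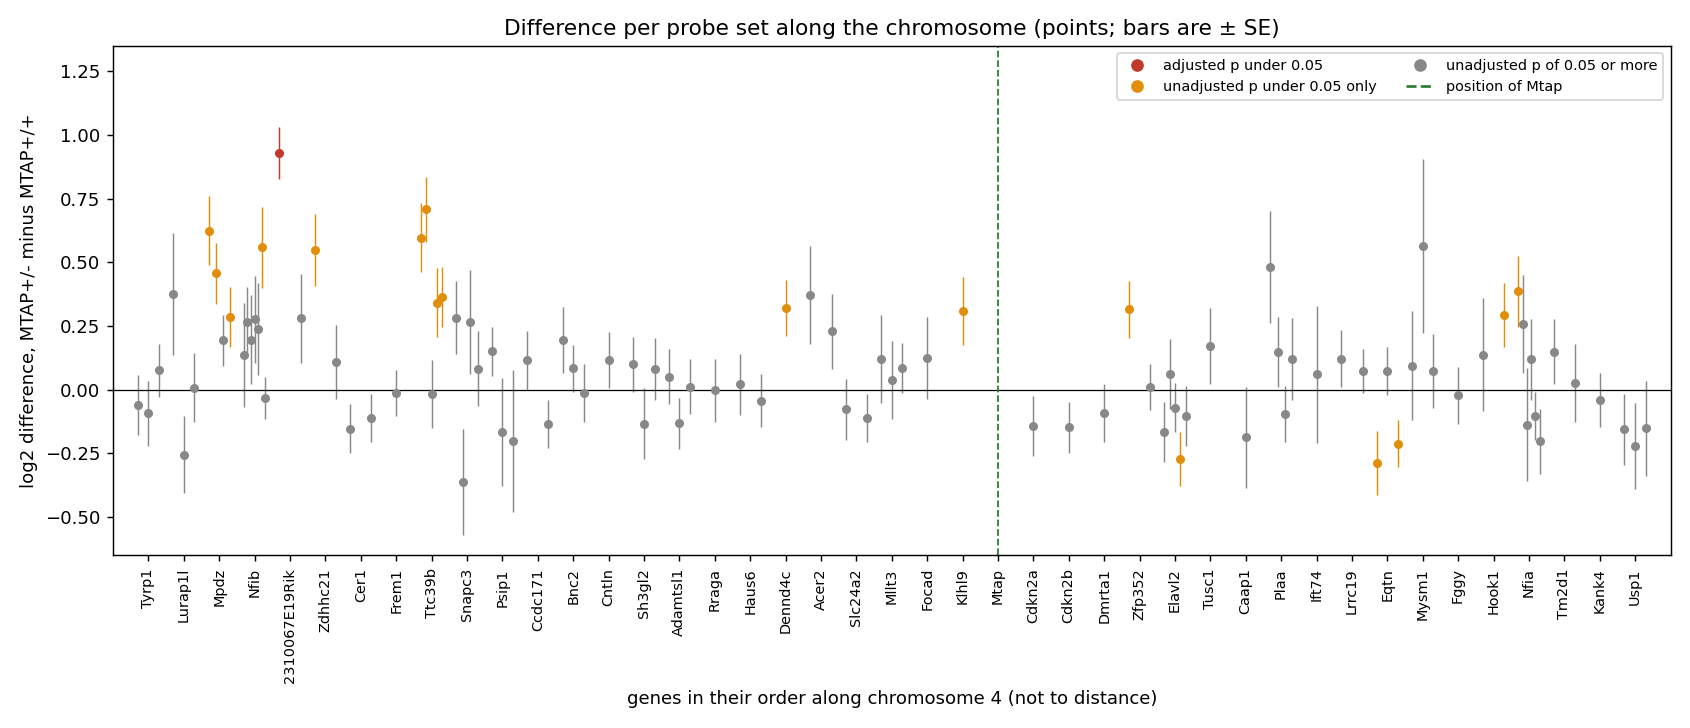
Log2 difference between MTAP+/- and MTAP+/+ livers (vertical axis) for each of the 101 probe sets, with genes in chromosome order (horizontal axis, not to distance); points are estimates from 4 livers per genotype and bars are ± SE from limma. The single red point is 2310067E19Rik at 0.93, and the orange points before Mtap all lie above 0.

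The largest difference was at a probe set annotated to 2310067E19Rik, listed as a noncoding RNA in the RefSeq table, whose span overlaps that of its neighbour Nfib. Its probe set 1438072_at read 5.53, 5.44, 5.18 and 5.27 in MTAP+/- livers, against 4.40, 4.50, 4.44 and 4.37 in MTAP+/+ livers. The genotypes were well separated, and the MTAP+/+ livers differed little from each other. The log2 difference was 0.93 ± 0.10 (SE), a 1.90-fold signal (95% interval 1.63 to 2.23), with an adjusted p of 0.0181 in limma. The adjusted p was 0.0939 without MTAP+/- replicate 1, 0.0784 without MTAP+/+ replicate 1 and 0.0781 without MTAP+/+ replicate 3, while the log2 difference stayed between 0.87 and 0.99 with any liver left out. The other probe set of this transcript, 1453448_at, read 4.78, 5.38, 4.85 and 4.52 in MTAP+/- livers, against 4.83, 4.70, 4.47 and 4.39 in MTAP+/+ livers. There the groups overlapped, and the log2 difference was 0.28 ± 0.18 (SE, adjusted p = 0.717), or 0.12 without MTAP+/- replicate 2.

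Nfib encodes nuclear factor I B, a transcription factor of developing and adult tissues, and was read by 7 probe sets. At the 5 of highest signal, which averaged 7.37 to 8.87 in MTAP+/- and 7.13 to 8.73 in MTAP+/+ livers, the log2 differences ran from 0.14 to 0.28 and the groups overlapped. Without MTAP+/- replicate 2 these 5 ran from -0.07 to 0.19: the brightest, 1448288_at, was then at -0.07, 1434101_at was at 0.09 and 1427680_a_at at 0.12. One of the dimmer probe sets, 1438244_at, read 4.51, 4.65, 4.07 and 4.20 in MTAP+/- livers, against 4.06, 3.93, 3.69 and 3.52 in MTAP+/+ livers. Its groups did not overlap, although MTAP+/- replicate 3 and MTAP+/+ replicate 1 all but met, and its log2 difference of 0.56 ± 0.16 (SE) had an adjusted p of 0.372. The 7th probe set, 1416293_at, was at -0.03. The probe sets of Nfib thus ranged from -0.03 to 0.56, and since Nfib and 2310067E19Rik overlap in position, which of the 2 transcripts each probe set reads cannot be told from the deposited values.

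Mpdz, 1 gene further from Mtap than Nfib, encodes a scaffold protein with many PDZ domains found at tight junctions. Its brightest probe set, 1418664_at, read 7.93, 7.88, 8.04 and 7.81 in MTAP+/- livers, against 7.02, 7.67, 7.19 and 7.28 in MTAP+/+ livers. All MTAP+/- livers were above all MTAP+/+ livers, of which replicate 2 came closest. The log2 difference was 0.63 ± 0.14 (SE), a 1.54-fold signal (95% interval 1.25 to 1.90). It missed the threshold over all probe sets (adjusted p = 0.218 in limma). The exact permutation p was 0.0286, the smallest that 4 against 4 livers allow. Every probe set without overlap takes this value, so it only restates the lack of overlap. The second probe set, 1418663_at, read 5.44, 5.70, 5.55 and 5.48 in MTAP+/- livers, against 4.91, 5.37, 4.99 and 5.08 in MTAP+/+ livers, again without overlap and again with MTAP+/+ replicate 2 highest among its group. Its log2 difference was 0.46 ± 0.12 (SE, adjusted p = 0.326). The other 2 probe sets of Mpdz lay below the median signal of the table. Of these, 1442978_at read 3.26, 2.78, 2.90 and 2.93 in MTAP+/- livers, against 2.74, 2.56, 2.80 and 2.61 in MTAP+/+ livers, with overlap and a log2 difference of 0.29 ± 0.12 (SE, adjusted p = 0.551). The last was at 0.19, so all 4 had the same sign.

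Zdhhc21 encodes a palmitoyltransferase, an enzyme that attaches a fatty acid to proteins. Probe set 1429488_at read 5.85, 5.77, 6.10 and 6.23 in MTAP+/- livers, against 5.16, 5.51, 5.39 and 5.69 in MTAP+/+ livers. The groups did not overlap, although MTAP+/- replicate 2 and MTAP+/+ replicate 4 were close to each other. The log2 difference was 0.55 ± 0.14 (SE, adjusted p = 0.318). The second probe set, 1435104_at, read 5.49, 6.01, 5.88 and 5.39 in MTAP+/- livers, against 5.49, 5.65, 5.69 and 5.49 in MTAP+/+ livers. It overlapped between genotypes and had a log2 difference of 0.11 with a 95% interval from -0.21 to 0.43, or 0.005 without MTAP+/- replicate 2.

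Ttc39b encodes a tetratricopeptide repeat protein that in mouse liver is known to bear on high-density lipoprotein through the liver X receptor. It had more probe sets at an unadjusted p under 0.05 than any other flanking gene, 4 of 5. Probe set 1452008_at read 6.53, 7.02, 6.62 and 6.91 in MTAP+/- livers, against 5.98, 5.94, 6.10 and 6.22 in MTAP+/+ livers. The genotypes were well separated, and the log2 difference was 0.71 ± 0.13 (SE), a 1.63-fold signal (95% interval 1.34 to 1.99, adjusted p = 0.133). The exact permutation p was 0.0286, as at every probe set without overlap. Probe set 1452009_at read 6.72, 6.86, 6.83 and 6.78 in MTAP+/- livers, against 6.27, 6.01, 5.95 and 6.57 in MTAP+/+ livers. MTAP+/+ replicate 4 stood nearest to the MTAP+/- livers here, and the log2 difference was 0.60 ± 0.14 (SE, adjusted p = 0.241). The dimmer probe set 1458963_at read 3.43, 3.47, 3.88 and 3.64 in MTAP+/- livers, against 3.20, 3.14, 3.27 and 3.35 in MTAP+/+ livers, without overlap (log2 difference 0.36, adjusted p = 0.423). Probe set 1440192_at read 3.73, 3.94, 4.29 and 3.92 in MTAP+/- livers, against 3.67, 3.37, 3.80 and 3.68 in MTAP+/+ livers, with overlap (log2 difference 0.34, adjusted p = 0.530). The remaining probe set, 1453392_at, averaged 4.91 in MTAP+/- and 4.92 in MTAP+/+ livers, a log2 difference of -0.02 with a 95% interval from -0.31 to 0.28. The 5 probe sets of Ttc39b thus gave unlike differences, and the interval of the last does not reach the estimates of 1452008_at and 1452009_at.

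**Figure D2:**
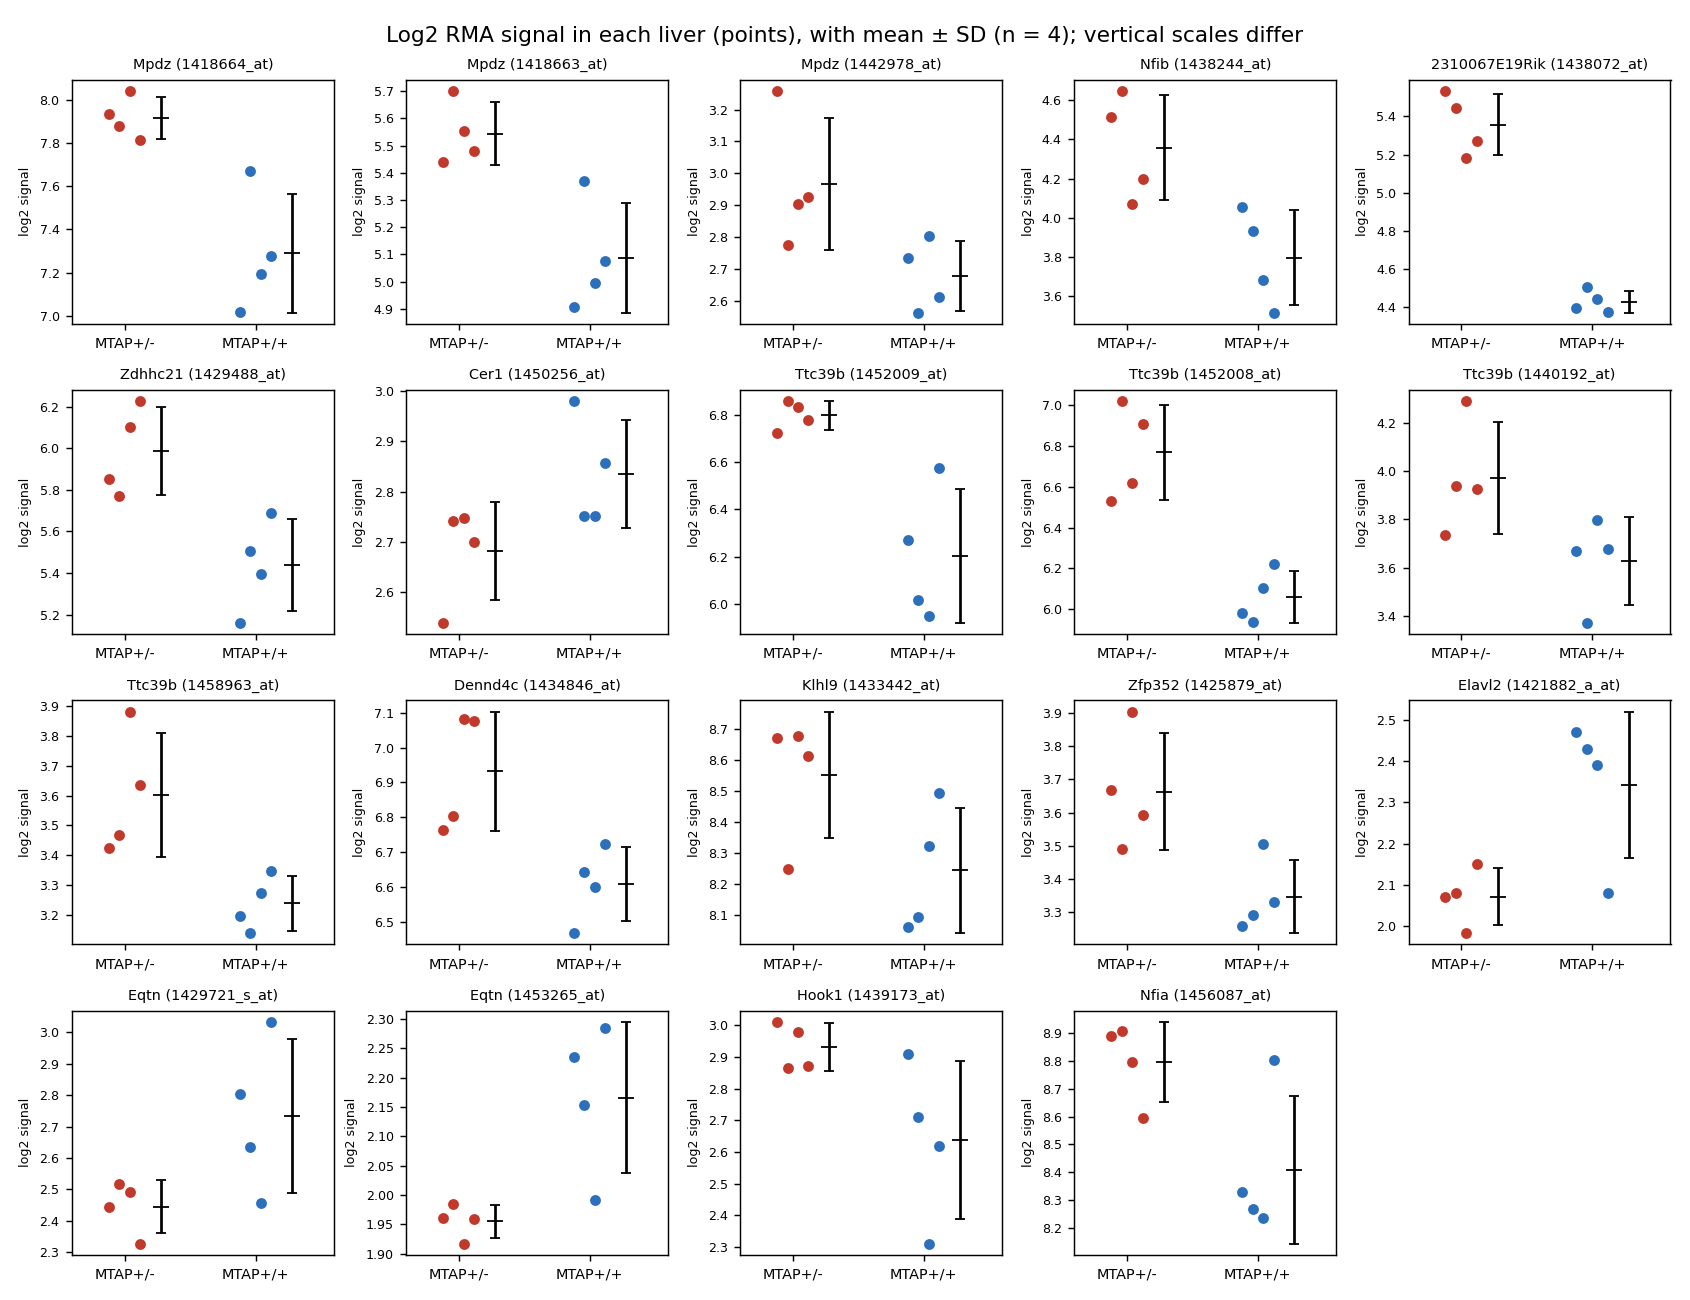
Log2 RMA signal of each liver (points; MTAP+/- on the left, MTAP+/+ on the right of each panel, replicates 1 to 4 from left to right) with mean ± SD (n = 4), for the 19 probe sets with an unadjusted p under 0.05 or without overlap. For 2310067E19Rik the MTAP+/- livers lie between 5.18 and 5.53 and the MTAP+/+ livers between 4.37 and 4.50; the vertical scales differ between panels.

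RefSeq promoters (GRCm38.p6) were at hand for 34 of the 42 genes. Those of the 3 genes that were higher without overlap and have an entry are shown, as the 250 bases before the annotated start, because these genes differed in the same direction. Capitals mark matches on either strand to 6 motifs, namely the CCAAT box (CCAAT), the ETS site (CCGGAAG), the E-box (CACGTG) and the D-box (TTATGTAA), the TATA box (TATAAA) and the GC box (GGGCGG). The windows are chr4:82859674-82859923 on the minus strand for Zdhhc21, chr4:83324190-83324439 on the minus strand for Ttc39b and chr4:86748305-86748554 on the plus strand for Dennd4c.
Zdhhc21: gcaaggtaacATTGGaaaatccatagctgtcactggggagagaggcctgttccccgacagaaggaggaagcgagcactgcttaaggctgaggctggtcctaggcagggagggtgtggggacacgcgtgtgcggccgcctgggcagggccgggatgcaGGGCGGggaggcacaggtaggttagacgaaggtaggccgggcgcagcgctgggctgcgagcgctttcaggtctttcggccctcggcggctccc
Ttc39b: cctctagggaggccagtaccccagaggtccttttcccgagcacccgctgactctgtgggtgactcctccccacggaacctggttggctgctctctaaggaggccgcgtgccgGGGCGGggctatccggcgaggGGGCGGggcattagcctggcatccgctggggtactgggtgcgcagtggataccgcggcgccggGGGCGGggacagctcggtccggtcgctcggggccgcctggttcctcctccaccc
Dennd4c: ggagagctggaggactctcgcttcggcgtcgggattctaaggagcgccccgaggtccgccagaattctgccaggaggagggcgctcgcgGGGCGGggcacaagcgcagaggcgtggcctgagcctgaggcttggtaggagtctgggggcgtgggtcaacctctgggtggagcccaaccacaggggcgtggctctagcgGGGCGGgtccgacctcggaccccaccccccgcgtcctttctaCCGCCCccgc
All 3 windows are rich in G and C (65.6% for Zdhhc21, 71.2% for Ttc39b and 70.8% for Dennd4c) and hold 1, 3 and 3 GC boxes in that order, while Zdhhc21 alone of the 3 holds a CCAAT box. None of the 6 motifs contains another. Over all 45 windows of flanking genes 51.1% held a GC box, against 32.7% of 32851 RefSeq windows, and 40.0% held a CCAAT box, against 33.8%. An E-box was in 0 of the 45 windows, against 6.02% of all windows, and a D-box in 1, that of Klhl9, against 0.819%. An ETS site was in 11.1% of the 45, against 6.91% of all windows, and a TATA box in 2.22%, against 12.4%. These are counts of letters in 1 window per start, and several starts can belong to 1 gene. The windows also differed in composition, with a median of 15 CG pairs in those of flanking genes, against 6 over all windows. The motif shares were not adjusted for this, so they cannot be read as a trait of the flanking genes apart from composition.

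Nearer to Mtap on the same side, Dennd4c encodes an exchange factor for Rab GTPases. It read 6.76, 6.80, 7.08 and 7.08 in MTAP+/- livers, against 6.47, 6.64, 6.60 and 6.72 in MTAP+/+ livers. The groups were adjacent but did not overlap, and the log2 difference was 0.32 ± 0.11 (SE, adjusted p = 0.457). Klhl9, an adaptor of a cullin ubiquitin ligase and the flanking gene next to Mtap, read 8.67, 8.25, 8.68 and 8.61 in MTAP+/- livers, against 8.06, 8.09, 8.32 and 8.49 in MTAP+/+ livers. Here MTAP+/- replicate 2 lay below MTAP+/+ replicates 3 and 4. The log2 difference of Klhl9 was 0.31 ± 0.13 (SE, adjusted p = 0.576) and kept an unadjusted p under 0.05 in 2 of the 8 fits without 1 liver. Focad, which encodes focadhesin, read 6.00, 5.77, 6.29 and 5.98 in MTAP+/- livers, against 6.06, 5.43, 6.03 and 6.03 in MTAP+/+ livers. Its groups overlapped, and its log2 difference of 0.13 ± 0.16 (SE) was -0.03 without MTAP+/+ replicate 2.

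On the other side the tumour suppressor genes next to Mtap were low and overlapped between genotypes. Cdkn2a, which encodes the INK4a and ARF proteins, read 3.16, 2.99, 2.72 and 3.11 in MTAP+/- livers, against 3.08, 3.27, 3.20 and 3.01 in MTAP+/+ livers. Cdkn2b, which encodes INK4b, read 3.78, 3.88, 3.74 and 3.74 in MTAP+/- livers, against 3.79, 4.12, 3.98 and 3.85 in MTAP+/+ livers. Most of these signals lie below the array medians, where a signal does not show expression without detection calls. The log2 differences were -0.14 for Cdkn2a (95% interval -0.40 to 0.12, adjusted p = 0.797) and -0.15 for Cdkn2b (95% interval -0.37 to 0.07, adjusted p = 0.744). Dmrta1, a transcription factor of the DM domain family, read 2.36, 2.38, 2.65 and 2.50 in MTAP+/- livers, against 2.64, 2.47, 2.39 and 2.76 in MTAP+/+ livers, a log2 difference of -0.09 (95% interval -0.34 to 0.16). At none of these 3 genes did either group separate from the other.

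Further after Mtap the probe sets at an unadjusted p under 0.05 were mixed in direction, and 1 of these 6 had no overlap between groups. Zfp352, a zinc finger gene known from early mouse embryos, read 3.67, 3.49, 3.90 and 3.59 in MTAP+/- livers, against 3.26, 3.29, 3.51 and 3.33 in MTAP+/+ livers at probe set 1425879_at, while its other probe set was at 0.01. The log2 difference of 1425879_at was 0.32 ± 0.11 (SE, adjusted p = 0.475). Nfia, the relative of Nfib at the far side, read 8.89, 8.91, 8.79 and 8.59 in MTAP+/- livers, against 8.33, 8.27, 8.24 and 8.80 in MTAP+/+ livers at its brightest probe set 1456087_at. MTAP+/+ replicate 4 was among the MTAP+/- values and the other 3 MTAP+/+ livers were below all of them. The log2 difference was 0.39 ± 0.14 (SE, adjusted p = 0.483), or 0.52 without MTAP+/+ replicate 4, and the other 5 probe sets of Nfia ran from -0.20 to 0.26. Hook1, a linker of cargo to microtubules, read 3.01, 2.86, 2.98 and 2.87 in MTAP+/- livers, against 2.91, 2.71, 2.31 and 2.62 in MTAP+/+ livers at its dim probe set 1439173_at. The groups overlapped there (log2 difference 0.29 ± 0.13 SE, adjusted p = 0.570), and the bright probe set of Hook1 was at 0.14.

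The 3 probe sets that were lower at an unadjusted p under 0.05 were all dim. Eqtn, a gene of the sperm acrosome, read 2.44, 2.52, 2.49 and 2.33 in MTAP+/- livers, against 2.80, 2.64, 2.46 and 3.03 in MTAP+/+ livers at probe set 1429721_s_at. At probe set 1453265_at it read 1.96, 1.98, 1.92 and 1.96 in MTAP+/- livers, against 2.24, 2.15, 1.99 and 2.28 in MTAP+/+ livers, without overlap. Elavl2, a neuronal RNA-binding protein gene, read 2.07, 2.08, 1.98 and 2.15 in MTAP+/- livers, against 2.47, 2.43, 2.39 and 2.08 in MTAP+/+ livers at probe set 1421882_a_at. Their log2 differences were -0.29, -0.21 and -0.27 in that order, each with an adjusted p above 0.5. The brightest probe set of Elavl2, 1454454_at, read 3.14, 2.92, 2.96 and 3.07 in MTAP+/- livers, against 3.04, 3.05, 3.48 and 3.17 in MTAP+/+ livers (log2 difference -0.16), and its groups overlapped. Cer1, before Mtap, which encodes a secreted antagonist of Nodal and BMP signals, read 2.54, 2.74, 2.75 and 2.70 in MTAP+/- livers, against 2.98, 2.75, 2.75 and 2.86 in MTAP+/+ livers at 1450256_at. These groups did not overlap, though their nearest values differed only past the second decimal, and the log2 difference was -0.15 ± 0.10 (SE, adjusted p = 0.720). All of these lie among the lowest signals, which RMA is known to compress.

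In 29 genes, Focad, Cdkn2a, Cdkn2b and Dmrta1 among them, no probe set had an unadjusted p under 0.05 and none was without overlap. Over all 42 genes 82 probe sets met neither criterion, with log2 differences between -0.36 and 0.56 and no adjusted p below 0.599. Among genes of metabolism and signalling, Acer2, an alkaline ceramidase, was at 0.23 and 0.37, and Fggy, a carbohydrate kinase, at -0.02. Rraga, a GTPase that signals amino acid supply, was at -0.003, and the sodium-calcium exchanger gene Slc24a2 at -0.11 and -0.08. Plaa, a ubiquitin-binding protein, ran from -0.10 to 0.48 over 4 probe sets, of which the brightest read 8.07, 7.39, 8.36 and 8.19 in MTAP+/- livers, against 7.18, 7.37, 7.56 and 7.97 in MTAP+/+ livers. MTAP+/- replicate 2 lay among the MTAP+/+ values there, and the log2 difference was 0.68 without it. The unadjusted p in limma was then 0.00278, against 0.0521 with all livers. Plaa was singled out after its values were seen.

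Among genes that act in the nucleus, Psip1, a chromatin reader, ran from -0.20 to 0.15, Mllt3, a part of transcription elongation complexes, from 0.04 to 0.12, and the zinc finger gene Bnc2 from -0.01 to 0.20. Snapc3, a subunit of the complex that starts small nuclear RNA genes, was read in both directions, from -0.36 to 0.28. Its probe set 1457731_at was at 0.27, or 0.03 without MTAP+/- replicate 2. Its probe set 1453077_a_at was at -0.36, with an unadjusted p of 0.110 in limma (adjusted p = 0.687). The unadjusted p was 0.0387 without MTAP+/- replicate 2. It was under 0.05 in 2 of the 8 fits without 1 liver and reached 0.338 in another. The spans of Snapc3 and Psip1 overlap in the RefSeq table, as do those of Ift74 and Lrrc19. Which transcript of such a pair a probe set reads cannot be told from the deposited values. Mysm1, a histone deubiquitinase, had all 3 probe sets above 0, from 0.07 to 0.56, and Usp1, a deubiquitinase of DNA repair, all 3 below 0, from -0.22 to -0.15. Among genes of the cytoskeleton and cilium, Cntln, a centrosomal protein, was at 0.12, Haus6, an augmin subunit, at -0.04 and 0.02, and Ift74, of intraflagellar transport, at 0.06.

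The extracellular matrix genes Frem1 and Adamtsl1 were at -0.01 and between -0.13 and 0.05. The endophilin gene Sh3gl2 ran from -0.13 to 0.10, and Tyrp1, a melanin enzyme gene and the outermost gene before Mtap, from -0.09 to 0.08. Lurap1l was read in both directions, from -0.25 to 0.38, and Ccdc171 from -0.13 to 0.12. Tm2d1 was at 0.03 and 0.15 and Lrrc19 at 0.07 and 0.12, while the single probe sets of Tusc1, Kank4 and Caap1 were at 0.17, -0.04 and -0.19. Of the 28 genes with several probe sets, 10 had all of them above 0, 3 had all below 0 and 15 were mixed. The same count was not taken over all genes, so it has no background. Of the 101 single probe sets 63 were above 0 and 38 below, or 62.4% above, against 47.3% of all probe sets.

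The counts differed by position. Before Mtap 12 of 61 probe sets, of 7 genes, were higher and 0 were lower at an unadjusted p under 0.05, and after Mtap 3 of 40 were higher and 3 were lower. The difference between the sides was not tested, and the sides were set apart after the values were known. The 12 were spread over Mpdz, Nfib, 2310067E19Rik, Zdhhc21 and Ttc39b, which lie within 7 consecutive genes of the list with Cer1 and Frem1 between them, and over Dennd4c and Klhl9. None of the 9 genes from Snapc3 to Haus6, which lie between Ttc39b and Dennd4c, had such a probe set. Of the 38 probe sets of other genes that lie in the same interval 2 were higher and 1 was lower, and 0 had an adjusted p under 0.05. On the rest of chromosome 4 3.62% of 1960 probe sets were higher and 5.26% lower, and on other chromosomes 4.45% of 32777 were higher and 4.33% lower. Of the flanking probe sets 47 had a mean above the median probe set of the table, and 10 of these were higher and 0 lower at an unadjusted p under 0.05, where the background above that median was 12.0%, of which 6.27% higher and 5.68% lower. The median log2 difference was 0.15 over these 47 and -0.002 over the 54 dimmer ones.

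**Figure D3:**
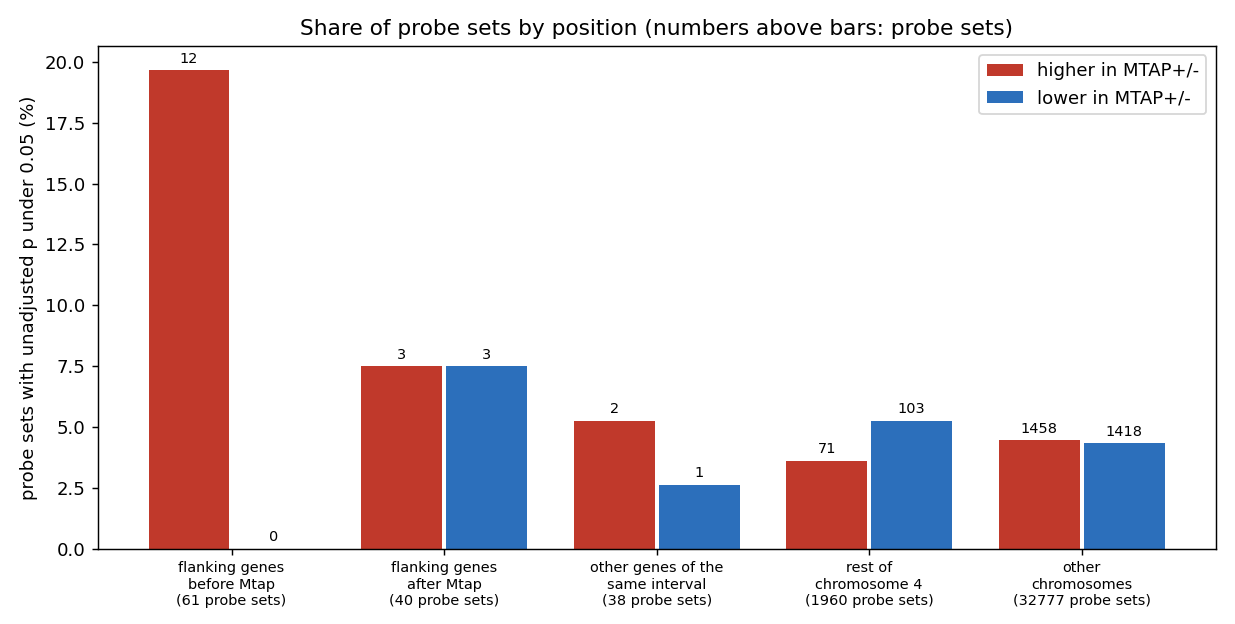
Share of probe sets with an unadjusted p under 0.05 in limma (vertical axis, percent) that were higher (red) or lower (blue) in MTAP+/- than in MTAP+/+ livers, by position (horizontal axis), with the number of probe sets above each bar. Before Mtap 12 of 61 were higher and 0 lower; probe sets of 1 gene are not independent.

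Livers of 1 genotype varied at some flanking genes by more than the genotypes differed. MTAP+/+ replicate 2 was far from the other MTAP+/+ livers at several of them. It read 6.93 at probe set 1460403_at of Psip1, against 5.67 to 5.78 in the other MTAP+/+ livers, and 6.93 at Ift74, against 5.51 to 5.70. It was the lowest MTAP+/+ liver at Acer2 (5.43, against 6.16 to 6.26) and at Focad (5.43, against 6.03 to 6.06). This liver was thus not low or high throughout, and it lay on either side of its group by gene. MTAP+/- replicate 2 was the highest of its group at all 5 bright probe sets of Nfib, from 7.81 to 9.49, and MTAP+/+ replicate 2 was also the highest of its group at each of these, from 7.47 to 9.07.

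**Figure D4:**
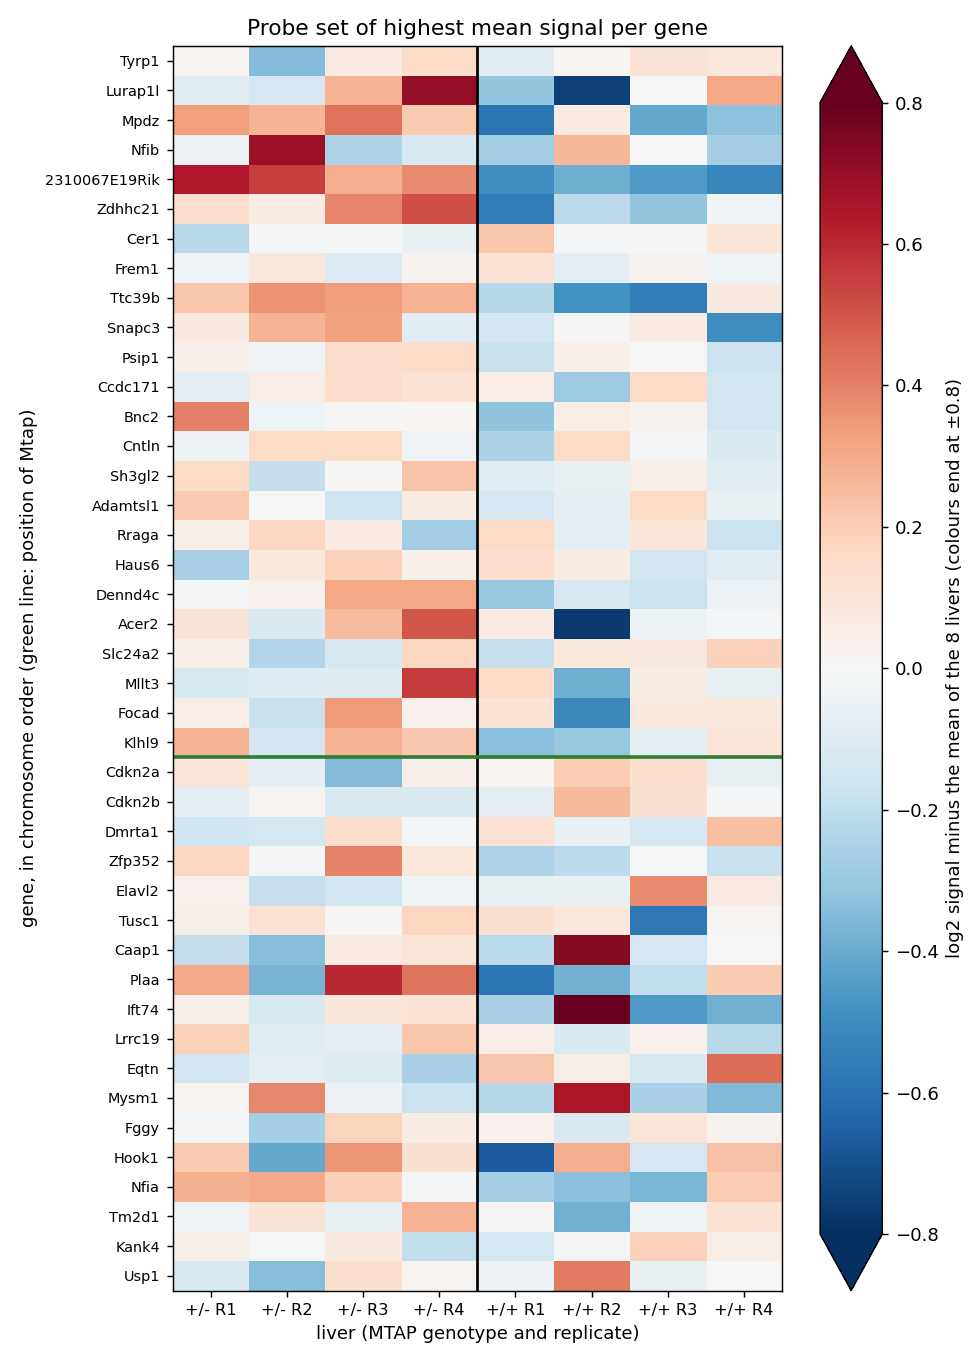
Log2 signal of each liver minus the mean of the 8 livers (colour, ending at ±0.8) for the probe set of highest mean signal of each of the 42 genes, in chromosome order from top to bottom; MTAP+/- livers are the left 4 columns and MTAP+/+ livers the right 4, and the green line is the position of Mtap. Mpdz, 2310067E19Rik, Zdhhc21 and Ttc39b are red or pale red across the MTAP+/- columns, and MTAP+/+ replicate 2 has deep colours at Lurap1l, Acer2, Caap1 and Ift74.

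The differences were then followed as each liver was left out. Of the 18 probe sets with an unadjusted p under 0.05, 9 stayed below it in all 8 fits. These 9 were the brightest 2 of Mpdz, 1438244_at of Nfib, 1438072_at of 2310067E19Rik, 1429488_at of Zdhhc21, 3 of Ttc39b and Dennd4c. They are the same 9 at which every MTAP+/- liver lay above every MTAP+/+ liver, and all of them lie before Mtap. The 18 were picked by this p in the same livers. Groups that do not overlap also stay apart when 1 liver is left out. The steadiness of the 9 is thus no separate support. Without MTAP+/- replicate 2, 17 of the 18 stayed below 0.05, and without MTAP+/+ replicate 4, 14 did. The count over all 101 was 11 without MTAP+/- replicate 3, the largest loss from leaving out 1 liver. Probe sets without overlap numbered 20 without MTAP+/- replicate 2 and 17 without MTAP+/+ replicate 4, against 11 with all livers. Groups of 3 against 4 livers separate more easily. The share over all probe sets was not taken for the fits without 1 liver, so these counts have no background.

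**Figure D5:**
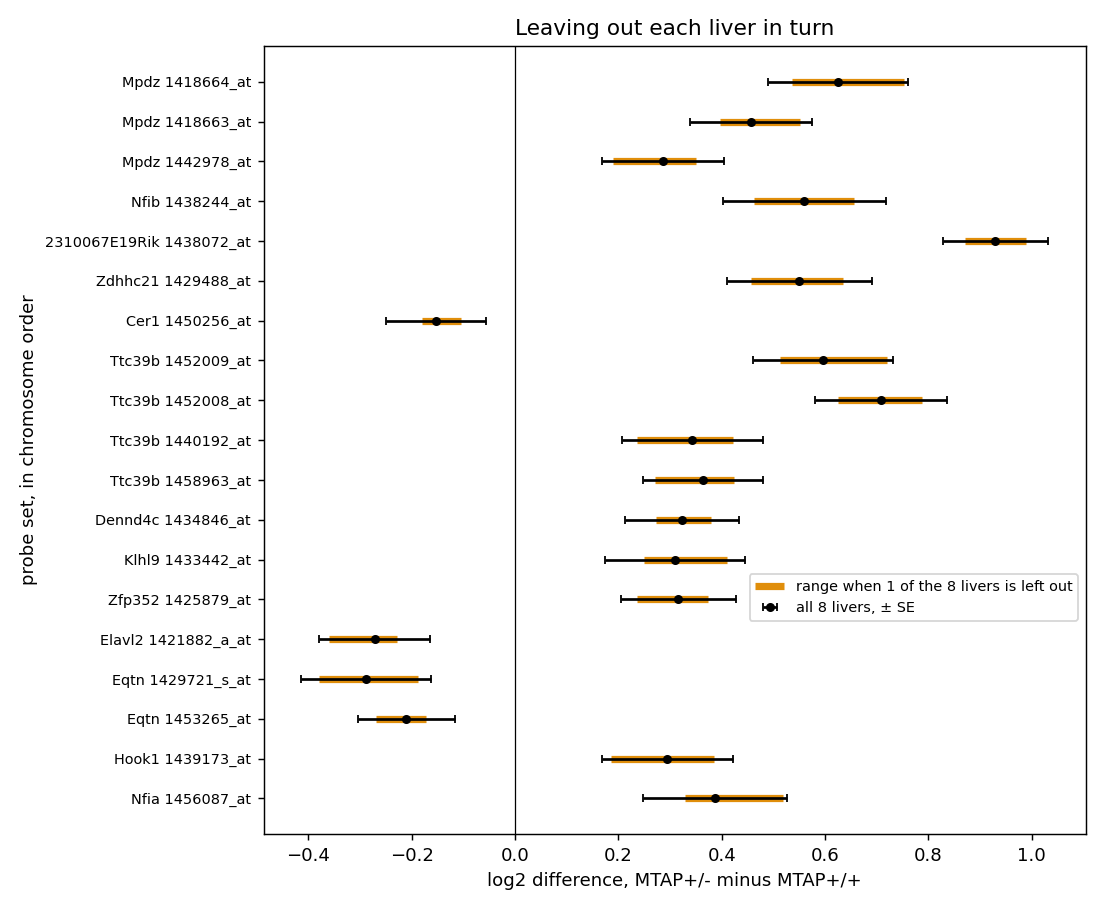
Log2 difference between MTAP+/- and MTAP+/+ livers (horizontal axis) with all 8 livers (points, ± SE) and its range when each liver is left out in turn (orange bars), for 19 probe sets in chromosome order. No range crosses 0, and that of 2310067E19Rik runs from 0.87 to 0.99. The 19 were picked in the same livers for an unadjusted p under 0.05 or for lack of overlap, so a steady sign is no separate support.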

How the data were processed

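Liver RNA of 8 mice was isolated with TRIzol, per the labels' protocols, and each sample was put on an Affymetrix array. The authors deposited RMA values on a log2 scale, per the submitters' processing notes and the range of the values (1.64 to 14.7). The labels name no version or settings of RMA. Of 45101 probe sets 64 controls were left out. Of the 45037 others the platform annotation gave 34945 a single symbol, 932 several and 9160 none. Arrays have no read depth, and their number limits the precision.

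Genotypes were read from sample titles. All 45037 probe sets were fitted in limma 3.58.1 (lmFit and eBayes, R 4.3.3) on genotype alone, two-sided, with Benjamini-Hochberg adjustment across them. The fit was also run on simulated data with independent noise. Recovery was required there only for a change larger than any flanking difference, so that run does not bear on the sizes reported here. Exact permutation tests went through all 70 assignments, two-sided. Gene order came from NCBI RefSeq (GRCm38.p6); the build behind the array annotation is not stated, so no positions are printed but those of the promoters. Every gene is named. Values in each liver are given where the unadjusted p was under 0.05, where groups did not overlap, and for the brightest probe set of Cdkn2a, Cdkn2b, Dmrta1, Elavl2, Klhl9 and Focad; Plaa, the second probe sets of 2310067E19Rik and Zdhhc21, and single livers of other genes were added after their values were seen. The genes, lists and motifs were chosen with earlier results of these data known. Alternatives left out each liver, dim or cross-hybridising probe sets, or used a replicate block, a trended robust eBayes fit, weights per array, a further quantile step, centring, a 3' minus 5' control covariate, 1 value per gene or a looser threshold. The replicate numbers were not taken as pairs, because the labels do not say that same-numbered mice are related. Deviations of same-numbered replicates from their group means correlated at -0.07, 0.22, 0.005 and 0.23, which does not settle the point.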

Additional observations from a re-analysis of the deposited data

Results flagged for a closer look

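In each genotype the highest or lowest of the 4 livers was compared with the others at all 101 probe sets. In 17 of 202 groups (8.42%) it stood farther from its nearest neighbour than Dixon's 95% critical value for 4 values allows. The nominal rate is about 1 group in 20. The share over all probe sets was not taken, and the 202 groups come from the same livers. An excess particular to these genes thus cannot be read from this count.

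Among MTAP+/- livers, replicate 2 was high at 1454834_at of Nfib (8.97, others 8.60 to 8.64) and 1438236_at of Nfia (6.48, others 5.47 to 5.59) and low at Klhl9 (8.25, others 8.61 to 8.68). MTAP+/- replicate 4 was high at 1429205_at of Mllt3 (3.75, others 3.08 to 3.10) and 1415861_at of Tyrp1 (2.81, others 2.51 to 2.54) and low at 1429665_at of Haus6 (2.56, others 2.68 to 2.71). MTAP+/- replicate 1 was high at 1438861_at of Bnc2 (3.08, others 2.65 to 2.69), and MTAP+/- replicate 3 at 1442063_at of Adamtsl1 (2.52, others 2.32 to 2.34).

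MTAP+/+ replicate 2 accounted for 7 of the 17. It was high at 1460403_at of Psip1 (6.93), Ift74 (6.93), 1437202_at of Mysm1 (5.66, others 4.66 to 4.78) and 1451080_at of Usp1 (7.59, others 7.11 to 7.17), and low at 1451355_at of Acer2 (5.43), Focad (5.43) and 1425880_x_at of Zfp352 (3.02, others 3.07 to 3.08). MTAP+/+ replicate 3 was low at Tusc1 (6.11, others 6.71 to 6.81), and MTAP+/+ replicate 4 was high at 1456087_at of Nfia (8.80, others 8.24 to 8.33).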

How the results depend on the processing

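The count of flanking probe sets past an adjusted p of 0.05 was 1 under all alternatives except averaging the probe sets of each gene (0 genes) and the fits without 1 liver (0 to 1), in which the call of 2310067E19Rik was lost 3 times. Over the 16 alternatives that kept its probe set, its adjusted p ran from 0.0120 to 0.0939. The count at an unadjusted p under 0.05, 18 in the fit to all livers, was 9 with dim probe sets left out, 9 genes with the brightest probe set per gene, 7 genes after averaging, and 11 to 21 without 1 liver. The first 3 of these have fewer probe sets or genes to count. Probe sets without overlap, 11 of 101 with all livers, numbered 8 with arrays centred on their medians, 10 after a further quantile step, 8 with dim probe sets left out, 6 genes with either value per gene and 11 to 20 without 1 liver, where groups of 3 against 4 separate more easily. The median log2 difference was 0.12 with the brightest probe set per gene, 0.15 with dim probe sets left out and 0.0425 to 0.0814 without 1 liver. With the replicate number as a block the unadjusted count was 22 and the adjusted count 1; 4 of 8 arrays correlated best with the array of their own number. Of the 24 probe sets followed singly, only Focad turned its direction without 1 liver. Its log2 differences ran from -0.0257 (without MTAP+/+ replicate 2) to 0.205 (without MTAP+/- replicate 2). Most of the 24 were picked for an unadjusted p under 0.05 or for lack of overlap, which favours a steady direction. Dim signals limit what can be read for many of these genes.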
